A study of Mus musculus with 6 samples.

Results

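Cacna1g and 9 genes of the calcium entry machinery were followed in splenic regulatory T cells (Treg cells). The 10 genes were taken by symbol from a table of 46078 gene identifiers, and all 10 were found. Cacna1g was picked because it stood higher under the MAZR-cKO label in these same data. The others, Orai1, Orai2, Orai3, Stim1, Stim2, Itpr1, Itpr2, Itpr3 and Atp2a3, were listed by function. All 10 passed the filter that left 12040 genes to be tested, which was a level of 1 CPM (reads scaled by the authors to a common library size) in at least 3 libraries. Cacna1g passed it through the libraries labelled MAZR-cKO alone, so its difference is given as a description, and no test of it is used as support.

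Treg cells are CD4+ T cells that hold immune responses in check and depend on the transcription factor Foxp3. RNA was sequenced from 6 libraries of C57BL/6 mice aged 6 to 8 weeks, 3 per genotype. The WT group was wild type DEREG-eGFP+, and the MAZR-cKO group was MAZRf/f DEREG-eGFP+ CD4-cre+. Both therefore carried DEREG, a transgene in which Foxp3 control elements drive a diphtheria toxin receptor fused to a green fluorescent protein, and cells positive for CD4 and for that protein were sorted. The label of the WT group names no Cre. CD4-cre acts from a thymic stage shared by the CD4 and CD8 lineages, so the deletion of Patz1, the gene for the transcription factor MAZR, would not be confined to Treg cells. Whether a library holds 1 animal or a pool is not stated, so the spread between libraries may be partly technical.

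Calcium is a second messenger of the T cell receptor. Receptor signals produce inositol trisphosphate (IP3), which opens IP3 receptors in the endoplasmic reticulum and empties its calcium store. STIM proteins sense the falling store and open ORAI channels in the plasma membrane, the route known as store-operated entry, and SERCA pumps refill the store. Voltage-gated channels such as the T-type channel whose pore subunit is encoded by Cacna1g open on depolarization and are best known from neurons and heart muscle.

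The libraries held 15481565 to 28184456 reads, so that 1 CPM rested on 16.1 to 28.8 reads. Foxp3 was abundant in both groups, at 1323 ± 63 CPM in WT and 1364 ± 51 CPM under the MAZR-cKO label (SD, n = 3). Of 7 Treg markers that include Foxp3, 2 had a positive and 5 a negative log2 difference, with a median of -0.041. Over all tested genes 56.1% were negative. The sums of the 7 markers overlapped, at 5123 to 5559 CPM in WT and 5072 to 5461 CPM under the MAZR-cKO label. Patz1 went against the label: it stood at 71.4 ± 3.6 CPM in WT and 179 ± 2.1 CPM under the MAZR-cKO label. A gene-level value sums all exons and does not show whether a deleted segment was present, so directions are given for libraries as labelled. The summed level of 4 Y-linked genes was 164 to 276 CPM in WT and 0.48 to 199 CPM under the MAZR-cKO label, the lowest being MAZR-cKO 2. In bulk RNA, fewer cells of a type and less RNA per cell cannot be told apart.

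Whether reads of Cacna1g could come from a related gene was examined first, on the GENCODE M21 transcripts of GRCm38, the assembly that mm10 denotes. Of the 10466 distinct 50-base words in its 16 annotated transcripts, 19 (0.182%) occurred in another gene, and that gene was Cacna1i in every case. Cacna1g, Cacna1h and Cacna1i are the 3 pore subunit genes of T-type channels. The coding stretch where they are most alike is shown as an example of where reads could be misassigned. Capitals mark bases that differ from Cacna1g, all sequences running from 5′ to 3′ on the coding strand.
Cacna1g: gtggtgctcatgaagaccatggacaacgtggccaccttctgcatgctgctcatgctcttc
Cacna1h: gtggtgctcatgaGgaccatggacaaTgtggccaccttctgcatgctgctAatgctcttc
Cacna1i: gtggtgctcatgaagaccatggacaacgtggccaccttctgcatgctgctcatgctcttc
These 60 bases lie at chr11:94443189-94443248 on the minus strand in exon 11 of Cacna1g. The Cacna1h copy, with 3 bases changed, is at chr17:25388576-25388635 on the minus strand, and that of Cacna1i, with 0 changed, at chr15:80369694-80369753 on the plus strand. Some of the 19 shared words lie outside the stretch shown, so the sequence in common with Cacna1i is wider than these 60 bases. The length of the sequenced reads is not given in the sources used here.

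The ORAI genes can be told apart even where they are most alike. Their most similar coding stretch is shown on the same plan, with capitals for bases that differ from Orai1.
Orai1: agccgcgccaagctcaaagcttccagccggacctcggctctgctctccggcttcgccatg
Orai2: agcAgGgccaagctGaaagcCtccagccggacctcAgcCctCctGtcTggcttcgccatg
Orai3: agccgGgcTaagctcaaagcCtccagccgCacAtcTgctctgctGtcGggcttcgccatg
The Orai1 stretch is at chr5:123015507-123015566 on the plus strand. The Orai2 stretch, with 9 of 60 bases changed, is at chr5:136161487-136161546 on the minus strand, and the Orai3 stretch, with 8 changed, at chr7:127770157-127770216 on the plus strand. Orai1, Orai3 and Stim1 shared 0 words of 50 bases with any other gene, and the highest share among the 10 genes was 1.51%, for Itpr3, all of it with the antisense model Itpr3os. Itpr3os had 0 reads in all 6 libraries.

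Cacna1g was nearly silent in WT and low but clearly present in every library labelled MAZR-cKO. It spans chromosome 11 from 94408391 to 94474198 (mm10, minus strand), is protein-coding, and no other gene of the table overlaps it. Its level was 0.203, 0.439 and 0.671 CPM in WT 1, 2 and 3, which rested on 4, 8 and 12 reads. Under the MAZR-cKO label, in the same order, it was 4.23, 4.69 and 3.43 CPM, from 68, 88 and 99 reads. As the choice of the gene entails, the groups did not overlap. Exact 95% Poisson intervals were 0.347 to 1.17 CPM for WT 3, the highest WT library, and 2.79 to 4.18 CPM for MAZR-cKO 3, the lowest with its label. These intervals cover counting error only.

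The mean of Cacna1g was 0.438 ± 0.234 CPM in WT and 4.12 ± 0.64 CPM under the MAZR-cKO label (SD, n = 3), a 9.40-fold ratio of means. On the log2(CPM + 0.5) scale, which understates the difference of so low a gene, the gap was 2.32, while edgeR on whole reads recovered from the CPM values gave 3.24. Of the 12040 genes tested, 0.0415% were called by limma at a Benjamini-Hochberg adjusted p under 0.05, and 5.0% were higher without overlap. Cacna1g was among both and was chosen from the called genes, so these shares add nothing to its case. The same holds for its call under other settings, which was lost without WT 2, without MAZR-cKO 1, without MAZR-cKO 2 and with the summed Y-linked level as a covariate. The log2 difference itself was 2.23 with that covariate and 2.1 to 2.5 when any 1 library was left out. Cacna1g was highest in MAZR-cKO 2, the library with the lowest Y-linked sum, and lowest in WT 1. The highest Y-linked sum under the MAZR-cKO label, 199 CPM, lay within the WT range of 164 to 276 CPM. Every library with that label had 3.43 CPM of Cacna1g or more. Whether Cacna1g goes with the Y-linked level was not tested.

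**Figure D1:**
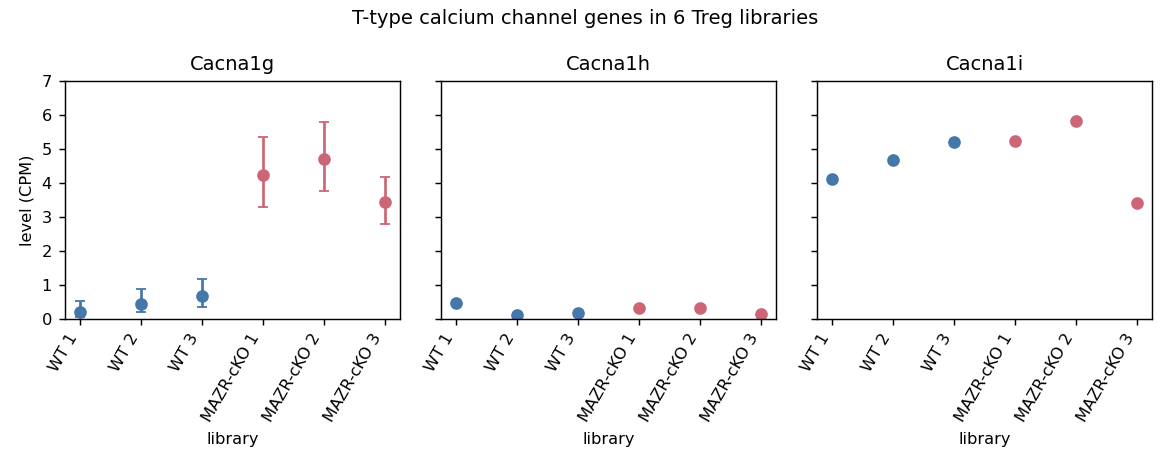
Level in CPM of the T-type channel genes Cacna1g, Cacna1h and Cacna1i in each of the 6 libraries, with WT in blue and MAZR-cKO in red; bars on Cacna1g are exact 95% Poisson intervals of its reads. Cacna1g lies at 0.203 to 0.671 CPM in WT and 3.43 to 4.69 CPM under the MAZR-cKO label, while both relatives overlap between the labels.

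The other T-type genes overlapped between the labels. Cacna1i stood at 4.11, 4.67 and 5.20 CPM in WT 1, 2 and 3 and at 5.22, 5.81 and 3.4 CPM under the MAZR-cKO label in the same order. The groups overlapped, with MAZR-cKO 3 the lowest of the 6, and the log2 difference was 0.017 with a 95% interval of -0.43 to 0.46 (limma adjusted p = 0.996). Cacna1h had 0.110 to 0.457 CPM in WT and 0.139 to 0.320 CPM under the MAZR-cKO label and was not tested for its low level. The label difference of Cacna1g against that of Cacna1i was not itself tested.

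Genes beside Cacna1g on the chromosome were also examined. The nearest tested gene on the lower-coordinate side, Abcc3, which encodes a transporter of organic anions, ends at 94392997. Abcc3 had 9.65 ± 1.98 CPM in WT and 11.8 ± 2.9 CPM under the MAZR-cKO label (limma adjusted p = 0.922). On the other side Rsad1, which starts at 94539798, had 11.7 ± 0.46 and 12.2 ± 0.43 CPM (limma adjusted p = 0.958). Neither neighbour passed the test.

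The 5 genes whose log2(CPM + 0.5) profile over the 6 libraries was most like that of Cacna1g were Crim1, Gh, Nod1, Erbb3 and the processed pseudogene Gm33707, with Pearson r of 0.979 to 0.983. A gene that differs between the labels must correlate with Cacna1g here, as the 6 points fall into 2 groups, so r is given as a description without a p. Crim1, which encodes a membrane protein that binds bone morphogenetic proteins, had the highest r. It stood at 75.9, 75.3 and 77.9 CPM in WT 1, 2 and 3 and at 99.1, 96.7 and 92.1 CPM under the MAZR-cKO label in the same order. Under the MAZR-cKO label the growth hormone gene Gh lay between 42.5 and 53.1 CPM, against a single read per WT library. Erbb3, a receptor of the epidermal growth factor receptor family, had 28.4 ± 0.90 and 31.5 ± 0.19 CPM. For the 9 calcium entry genes r to Cacna1g ran from -0.82 for Orai1 to 0.46 for Itpr3, and Itpr3 ranked 1934 in likeness. These values too largely restate the label differences, and likeness apart from the labels was not measured.

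Markers of cells that a sort could carry along were compared for the same libraries. B cell markers, 6 of 6 tested, summed to 50.1 to 65.4 CPM in WT and 44.8 to 78.1 CPM under the MAZR-cKO label. Markers of myeloid cells and neutrophils, 6 of 9 tested, summed to 71.8 to 85.2 and 44.6 to 117 CPM. For NK and CD8 T cell markers, 7 of 7 tested, the sums were 39.4 to 51.9 and 43.8 to 69.8 CPM, and the 7 log2 differences were all positive, with a median of 0.20. Red cell and platelet markers, 5 of 10 tested, summed to 17.4 to 48.8 and 13.8 to 23.2 CPM, with a median log2 difference of -0.52 (1 positive, 4 negative). The median was 0.36 for B cell markers (4 positive, 2 negative) and 0.021 for markers of myeloid cells and neutrophils (4 positive, 2 negative). limma called 0 genes of these 4 lists, beside 0.0415% of all genes. Hbb-bs, a hemoglobin gene lower under the MAZR-cKO label, was the 1 gene at an unadjusted p under 0.05, beside 5.25% of all genes, and the 1 gene called in the blocked fit, beside 0.382%. Each sum overlapped between the labels, and no marker was at 0 in all 6 libraries. Of the platelet markers, Pf4 and Gp9 were at or under 0.168 CPM in every library. They were named after their values were seen and do not stand for the other platelet markers. The part of these cells in the Cacna1g result was not tested.

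None of the 9 genes of store-operated entry, IP3 receptors and SERCA was called as different between the labels by limma, edgeR or DESeq2. At the shares given below, a count of 0 among 9 genes does not set them apart from other genes. limma called 0 of the 9 over all genes, beside 0.0415% of all genes, and 0 of the 9 had an unadjusted p under 0.05, beside 5.25% of all genes. edgeR called 0 of the 9, beside 0.0386% of the genes it tested, and had 0 at an unadjusted p under 0.05, beside 5.19% (3.04% higher and 2.15% lower). DESeq2 called 0, beside 0.149%, and had 0 at an unadjusted p under 0.05, beside 2.04%. These 2 shares are over 22201 genes, as DESeq2 ran without the 1 CPM filter, so they include genes of very low level. limma blocked by replicate number called 0, beside 0.382%. Orai1 alone had an unadjusted p under 0.05 in the blocked fit, on the lower side, beside 10.6% of all genes in either direction and 6.66% lower. Of the 9, 2 had a positive and 7 a negative log2 difference, with a median of -0.042. Over all tested genes 56.1% were negative, with a median of -0.014. In the fit without the block, their 95% limma intervals together spanned -18.3% to 15.8% on the CPM + 0.5 scale. Differences beyond these bounds lay outside the interval of each gene in that fit. With the replicate block the log2 intervals together spanned -0.28 for Orai1 to 0.16 for Itpr3, and that of Orai1 left out 0.

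**Figure D2:**
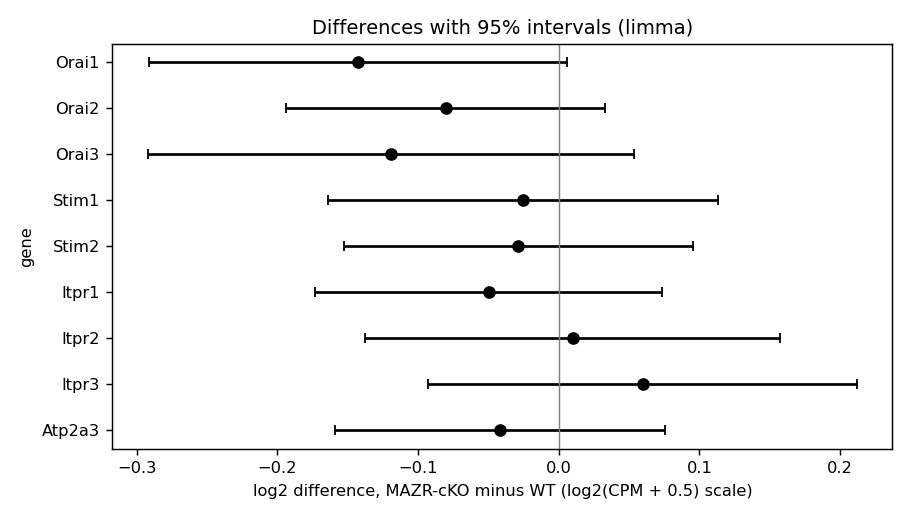
Log2 difference of the libraries labelled MAZR-cKO minus WT, on the log2(CPM + 0.5) scale, for the 9 genes of store-operated entry, IP3 receptors and SERCA; points are limma estimates and bars their 95% intervals. The fit is the one without the replicate block. All 9 bars include 0, and the estimates run from -0.14 for Orai1 to 0.060 for Itpr3.

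ORAI genes encode the pore of the store-operated channel, and Orai1 supplies the main one in T cells. Orai1 (chromosome 5, 123015074 to 123030456) stood at 56.9, 58.0 and 50.2 CPM in WT 1, 2 and 3 and at 48.9, 49.5 and 50.7 CPM under the MAZR-cKO label in the same order. WT 3 lay among the libraries labelled MAZR-cKO, which were closely grouped, so the groups overlapped. The means were 55.0 ± 4.2 and 49.7 ± 0.89 CPM (SD, n = 3), and the log2 difference was -0.14 with an interval of -0.29 to 0.0061 (limma adjusted p = 0.914). In percent this interval ran from -18.3% to 0.423%. With the replicate block the interval of the Orai1 log2 difference was -0.28 to -0.0061, which leaves out 0 (limma adjusted p = 0.448).

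Orai2, whose product can join Orai1 in the channel and is known from mouse T cells to dampen its current, lies on the same chromosome. Its level was 147, 159 and 155 CPM in WT 1, 2 and 3 and 141, 142 and 152 CPM under the MAZR-cKO label in the same order. Each library labelled MAZR-cKO was below the WT library of the same number, yet the groups overlapped and the log2 difference of -0.080 (-0.19 to 0.033) did not pass (limma adjusted p = 0.914). Orai3, the third pore gene, on chromosome 7, had 29.3, 33.9 and 31.3 CPM in WT and 27.8, 30.5 and 28.5 CPM under the MAZR-cKO label. It too was lower in each same-numbered pair and overlapped between groups, at a log2 difference of -0.12 (-0.29 to 0.053, limma adjusted p = 0.914). How many of all tested genes were lower in each same-numbered pair was not counted, so this order has no background share beside it.

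STIM genes encode the calcium sensors of the endoplasmic reticulum. Stim1, the sensor that opens ORAI channels on strong store depletion, had 143, 147 and 137 CPM in WT 1, 2 and 3. Under the MAZR-cKO label, in the same order, it had 134, 153 and 134 CPM, so MAZR-cKO 2 was the highest of all 6 and the other two the lowest. Stim2, which responds to smaller falls of the store, had 89.3, 92.6 and 91.3 CPM in WT and 87.2, 85.3 and 95.6 CPM under the MAZR-cKO label. There MAZR-cKO 3 was the highest and MAZR-cKO 2 the lowest, the reverse of Stim1 for MAZR-cKO 2. Their log2 differences were -0.025 (-0.16 to 0.11) and -0.029 (-0.15 to 0.095), with limma adjusted p of 0.974 and 0.960.

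IP3 receptor genes encode the release channels of the store. Itpr3 had 304, 353 and 325 CPM in WT 1, 2 and 3 and 340, 363 and 321 CPM under the MAZR-cKO label in the same order. Itpr2 had 268, 294 and 284 CPM in WT and 288, 305 and 259.9 CPM under the MAZR-cKO label, where MAZR-cKO 2 was the highest and MAZR-cKO 3 the lowest of the 6. Itpr1 had 93.5, 101 and 100.2 CPM in WT and 96.7, 98.1 and 89.7 CPM under the MAZR-cKO label, with MAZR-cKO 3 again the lowest. All 3 overlapped between the groups. Their log2 differences were 0.060 (-0.093 to 0.21) for Itpr3, 0.0099 (-0.14 to 0.16) for Itpr2 and -0.050 (-0.17 to 0.073) for Itpr1, with limma adjusted p of 0.926, 0.992 and 0.926.

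Atp2a3 encodes the SERCA pump typical of blood cells, which returns calcium to the store. Its level was 658, 693 and 715 CPM in WT 1, 2 and 3 and 652, 673 and 680 CPM under the MAZR-cKO label in the same order. Each library labelled MAZR-cKO was below its same-numbered WT library, but the groups overlapped. The share of all tested genes with this order was not counted. It rested on 10496 to 19620 reads per library, and the log2 difference was -0.042 (-0.16 to 0.076, limma adjusted p = 0.932).

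**Figure D3:**
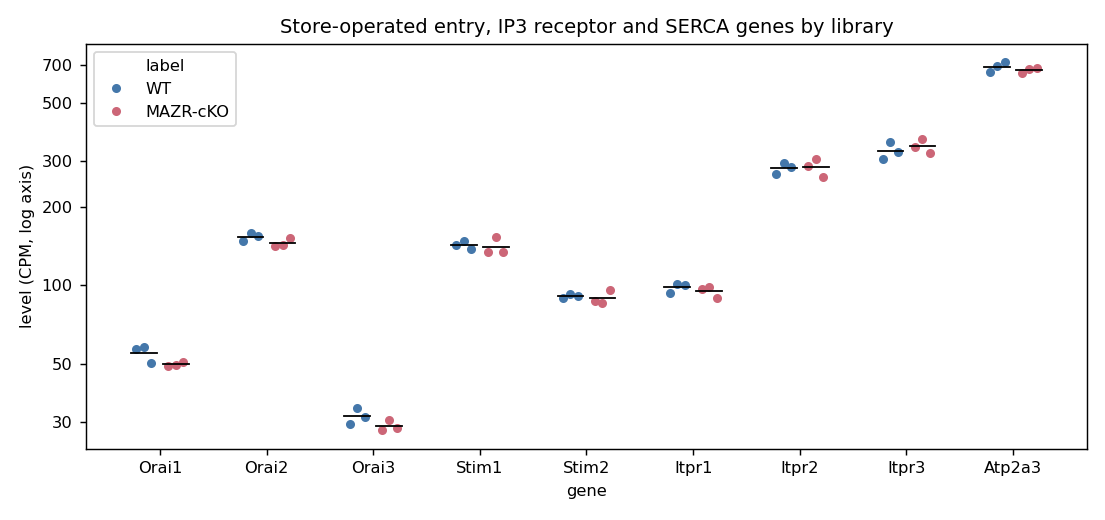
Level in CPM, on a log axis, of the 9 genes of store-operated entry, IP3 receptors and SERCA; each point is 1 library, from replicate 1 to 3 left to right, blue for WT and red for MAZR-cKO, and black lines are means. The groups overlap for all 9 genes, and levels run from 27.8 CPM for Orai3 to 715 CPM for Atp2a3.

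Levels of different genes were compared per kilobase of exon, since CPM values grow with transcript length. With all annotated exons as the length, Atp2a3 led with 129 ± 4.4 CPM per kilobase over the 6 libraries (SD, n = 6), above Itpr3 at 37.1 ± 2.4. Orai2 at 24.6 ± 1.1 and Orai1 at 22.8 ± 1.7 followed, with ranges that overlapped. Itpr2 at 19.1 ± 1.1 and Stim2 at 17.6 ± 0.73 overlapped as well, as did Orai3 at 14.1 ± 1.0 and Stim1 at 13.6 ± 0.74. Itpr1 came lowest of the 9 at 5.27 ± 0.23 CPM per kilobase. Cacna1g was far below, at 0.0432 ± 0.0231 in WT and 0.406 ± 0.063 CPM per kilobase under the MAZR-cKO label (SD, n = 3).

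The order in the middle depended on the length used. Stim1 has 10371 bases of annotated exon but a longest transcript of 4362 bases, and with the latter its level was 32.4 ± 1.8 CPM per kilobase, above Stim2 at 18.3 ± 0.76 rather than below it. Orai2 and Itpr3 became alike, at 37.5 ± 1.7 and 37.2 ± 2.4 CPM per kilobase. Atp2a3 stayed first and Itpr1 and Cacna1g last with either length. Which transcripts were present is not shown by gene-level values.

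**Figure D4:**
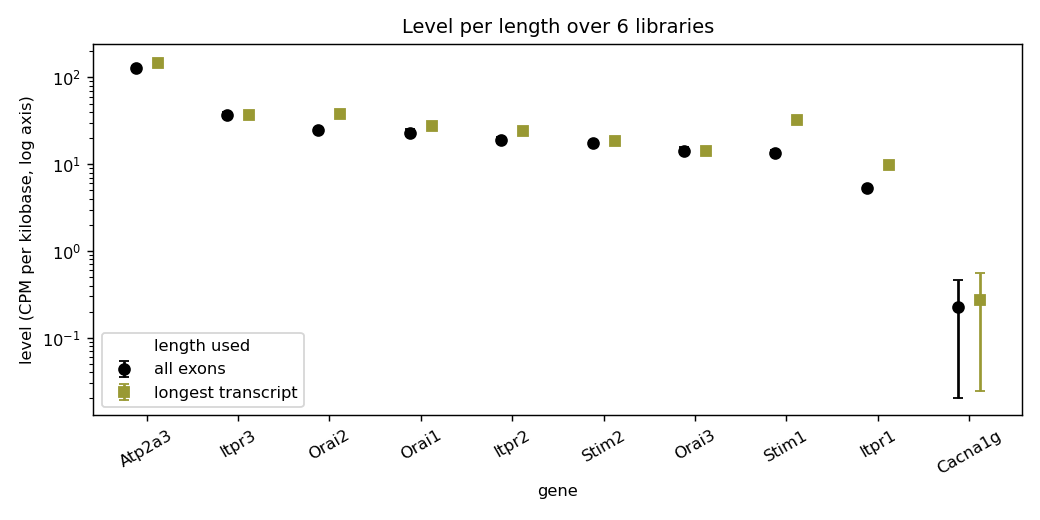
Level of each gene in CPM per kilobase, on a log axis, with all annotated exons (black circles) or the longest transcript (olive squares) as the length; points are means over the 6 libraries and bars the lowest and highest library, hidden by the point where narrow. Atp2a3 is highest and Cacna1g lowest with both lengths, and Stim1 moves from 13.6 to 32.4 CPM per kilobase.

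The make-up of each family was nearly the same under both labels. Of the summed ORAI level per kilobase of all exons, Orai1 made up 37.5% ± 2.1 in WT and 36.7% ± 0.31 under the MAZR-cKO label (SD, n = 3), Orai2 39.6% ± 1.3 and 40.5% ± 0.94, and Orai3 23.0% ± 1.0 and 22.9% ± 1.0. Stim1 made up 43.6% ± 0.83 and 43.7% ± 3.1 of the STIM sum. With the longest transcript as the length its share was 63.9% ± 0.79 and 63.9% ± 2.9, so which STIM gene was larger depended on the length. Of the IP3 receptor sum, Itpr3 made up 59.8% ± 0.82 and 60.8% ± 0.46 and Itpr2 31.4% ± 0.56 and 30.8% ± 0.52. The share of Itpr1 was 8.53% to 9.02% in WT and 8.10% to 8.46% under the MAZR-cKO label. These ranges did not overlap, and with the longest transcript as the length they were 13.7% to 14.4% and 13.0% to 13.6%. The second length only rescales each gene by a fixed factor in every library, so it is no separate support. How often shares of other genes separate in this way was not counted. Itpr1 was singled out after the 8 family shares were seen, and the shares were not tested.

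The wider calcium pathway was followed in 8 lists with 110 genes, of which 90 were tested. limma called 0 of the 90, beside 0.0415% of all genes, and so did edgeR, DESeq2 and limma with the replicate block, beside 0.0386%, 0.149% and 0.382%. At such shares a count of 0 among 90 genes does not set the lists apart. Homer3 and Camk1d, 2 genes on the higher side, and P2rx7, 1 on the lower, had an unadjusted limma p under 0.05, beside 2.33% and 2.92% of all genes. Of the 90, 42 had a positive and 48 a negative log2 difference. Without overlap 2 were higher and 5 lower, beside 5.0% and 5.74% of all genes.

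Among other voltage-gated calcium channel subunits, 9 of 17 were tested, with a median log2 difference of 0.017. Those of smallest p were Cacna1d, an L-type pore gene, at 3.6 ± 0.41 CPM in WT and 2.62 ± 0.89 CPM under the MAZR-cKO label, and the auxiliary beta subunit genes Cacnb3, at 3.16 ± 0.45 and 3.98 ± 0.65 CPM, and Cacnb1, at 40.7 ± 2.7 and 37.9 ± 5.1 CPM. The limma adjusted p of these was 0.914 to 0.926. The neuronal subunit gene Cacna2d3 had 0 reads in all 6 libraries, which with 3 reads as the limit allows up to 0.104 to 0.186 CPM.

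Among other plasma membrane cation channels, 10 of 13 genes were tested (median -0.0091). P2rx7, the channel that extracellular ATP opens, had the smallest p of all 90 genes. Its level was 273, 288 and 277 CPM in WT 1, 2 and 3 and 244, 243 and 228 CPM under the MAZR-cKO label in the same order. The groups did not overlap, and the log2 difference was -0.23 (SE 0.047), but it did not pass over all genes (limma adjusted p = 0.339, or 0.053 with the replicate block). P2rx4, another ATP-gated channel, stood at 33.4 ± 3.3 and 38.1 ± 3.2 CPM, and the cation channel gene Trpv2 at 154 ± 9.3 and 146 ± 3.4 CPM.

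Proteins that tune STIM and ORAI gave 11 of 13 tested genes (median 0.012), led by Sppl3, an intramembrane protease, at 72.3 ± 2.1 and 68.0 ± 4.3 CPM. Asph, one of whose products is the store protein junctate, had 1.38 ± 0.069 and 1.74 ± 0.36 CPM, and Grina 103 ± 0.69 and 99.9 ± 6.9 CPM. In the list of IP3 production and turnover, 13 of 13 were tested (median 0.0061). Its leading genes were Itpk1, an inositol phosphate kinase, at 84.4 ± 3.8 and 77.7 ± 2.5 CPM, and Inpp5a, a phosphatase that degrades IP3, at 27.0 ± 1.6 and 24.3 ± 0.81 CPM, both lower without overlap and not passing the test (limma adjusted p = 0.914 each). Itpkc, a kinase of IP3, had 25 ± 2.8 and 26.9 ± 0.43 CPM.

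Pumps, exchangers and the remaining store channels had 7 of 12 genes tested (median 0.023). Atp2a2, the SERCA gene used in most tissues, stood at 218, 217 and 223 CPM in WT 1, 2 and 3 and at 205, 206 and 211 CPM under the MAZR-cKO label in the same order. It was lower without overlap, by 0.082 on the log2 scale, and did not pass (limma adjusted p = 0.914). Atp2b4, a plasma membrane calcium pump, had 135 ± 7.6 and 127 ± 12 CPM, and Atp2c1, the pump of the Golgi, 80.6 ± 0.64 and 83.0 ± 2.6 CPM.

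For mitochondrial uptake, 9 of 9 genes were tested (median -0.016). Mcub, an inhibitory subunit of the mitochondrial uniporter, had 17.4 ± 1.0 and 15.5 ± 1.7 CPM, Vdac1 81.2 ± 1.9 and 76.4 ± 5.1 CPM, and Micu3 11.9 ± 0.20 and 13.1 ± 1.2 CPM. Of the calcium-binding and folding proteins of the endoplasmic reticulum, 9 of 9 were tested and 7 had a negative log2 difference (median -0.040). Rcn1 stood at 71.2 ± 6.1 and 64.2 ± 10.1 CPM, Pdia3 at 444 ± 7.9 and 425 ± 18 CPM, and the chaperone gene Canx at 246 ± 12 and 235 ± 2.1 CPM. limma adjusted p in both lists was 0.914 or higher.

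Downstream of entry, calcium binds calmodulin, which activates the phosphatase calcineurin, and calcineurin brings NFAT factors to the nucleus. Of this list 22 of 24 genes were tested (median -0.040). Homer3, a scaffold protein that binds NFAT, stood at 7.92, 7.30 and 7.50 CPM in WT 1, 2 and 3 and at 8.89, 10.6 and 9.78 CPM under the MAZR-cKO label in the same order. Camk1d, a calmodulin-dependent kinase gene, had 68.8 ± 1.8 and 75.7 ± 3.4 CPM. Both were higher without overlap and missed the threshold (limma adjusted p = 0.914 each). Nfat5, a member of the NFAT family that responds to osmotic stress without calcineurin, had 259 ± 3.6 and 289 ± 33 CPM.

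**Figure D5:**
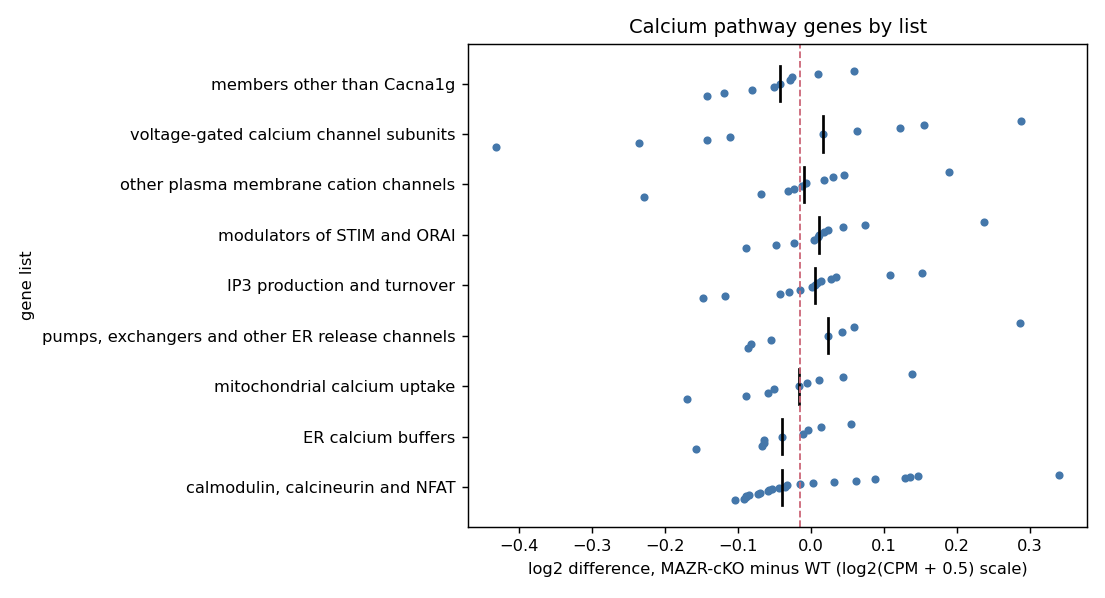
Log2 difference of the libraries labelled MAZR-cKO minus WT, on the log2(CPM + 0.5) scale, for each tested gene (blue points) of the 9 members other than Cacna1g and of 8 calcium pathway lists; black bars are list medians and the dashed red line is the median of all 12040 tested genes. List medians lie between -0.042 and 0.023, close to the -0.014 of all genes.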

How the data were processed

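The authors deposited 1 table of gene-level CPM values for the 6 libraries, with no value column outside them. The submitters' processing notes name STAR 2.5.2b, Subread 1.5.1, FastQC, edgeR, R 3.4 and the build mm10, without their roles, settings, strand mode or annotation release. In each library the deposited values were multiples of 1 step, the CPM of a single read, to within 0.01 reads for 100% of values, so whole reads were recovered. limma 3.58.1 (R 4.3.3) was fitted with an intensity trend on log2(CPM + 0.5) over 12040 genes at 1 CPM or more in at least 3 libraries, with p adjusted by Benjamini-Hochberg over all of them and a threshold of 0.05. edgeR 4.0.16, which tested 12957 genes and called 5, and DESeq2 1.42.0 ran on the recovered reads as alternatives. Other alternatives were pseudocounts of 0.1 and 1, no filter, a replicate block, quantile and equal-median scaling, a Y-linked covariate and each library left out. The fits were also run on simulated reads that shared a single dispersion (spread between libraries) and had no replicate pairs. No changed gene there was as low as Cacna1g, so that run does not cover such levels. Symbols, exons and coordinates come from GENCODE M21, which held 45229 of the 46078 identifiers. Gene sequences shown are GENCODE M21 transcripts.

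The titles number the libraries within each genotype but state no pairing. After subtracting genotype means, same-numbered libraries correlated at 0.40, 0.38 and 0.38, each over 0.1, and unlike-numbered ones at -0.21 to -0.16. A pairing by number is inferred from these values, and the replicate block was kept as an alternative to the main fit. The members and lists were chosen with earlier results of these data known. Named genes are the 10 members, the 3 tested genes of smallest p in each pathway list, the 5 genes most like Cacna1g and its neighbours. Cacna1h, Cacna1i, Cacna2d3, Itpr3os and single markers were added after their values were seen.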

Additional observations from a re-analysis of the deposited data

How the results depend on the processing

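Of the 9 genes other than Cacna1g, 0 were called in any of the 19 alternatives. limma called 5 genes of the whole table, 46 with the replicate block (36 higher, 10 lower), and edgeR called 46 with the replicate block and DESeq2 33. Leaving out 1 library gave 4 to 14, the 14 without MAZR-cKO 3. Leaving out a replicate pair with the block, added after seeing the data, gave 8, 45 and 279 without replicates 1, 2 and 3. In the last of these, 2 pathway genes were called, Nfat5 higher and P2rx7 lower. The Cacna1g difference of 2.32 was 3.06 and 1.84 with pseudocounts of 0.1 and 1, 3.24 in edgeR, 3.23 in edgeR with the replicate block and 3.25 in DESeq2. The block changed no call among the 10 genes or the pathway lists.

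Small differences changed sign in places. Stim1 was at 0.0062 and 0.0063 without MAZR-cKO 1 or MAZR-cKO 3 (-0.088 without MAZR-cKO 2), and 0.0083 without replicate 1 with the block. With the Y-linked covariate Stim1 was at -0.14, the farthest from 0 of its alternatives (limma adjusted p = 0.839). Stim2 was at 0.0042 without MAZR-cKO 2 (-0.078 without MAZR-cKO 3), 0.016 without replicate 2 with the block and 0.035 with the Y-linked covariate. Itpr1 was at 0.0042 without replicate 3 with the block. Itpr2 was at -0.025, -0.00039 and -0.042 without WT 1, MAZR-cKO 1 or MAZR-cKO 2 (0.073 without MAZR-cKO 3), at -0.036 and -0.012 without replicates 1 and 2 with the block, and at -0.099 with the Y-linked covariate, where Itpr3 was at -0.044. Sizes moved as well: over the 19 alternatives Orai1 ran from -0.22 to -0.10, Orai2 from -0.11 to -0.041, Orai3 from -0.19 to -0.066, Atp2a3 from -0.074 to -0.014, Itpr1 from -0.10 to 0.0042 and Itpr3 from -0.044 to 0.12. Leaving out 1 library took Orai3 to -0.066 (without WT 2), Atp2a3 to -0.014 (without WT 3), Itpr1 to -0.011 (without MAZR-cKO 3) and Itpr3 to 0.0077 or 0.12 (without WT 1 or WT 2). Orai1 came nearest to a call without replicate 3 with the block, at -0.22 (limma adjusted p = 0.084, and 0.448 or higher in its other alternatives). The cause was not tested. Depth limits Cacna1g in WT, with 24 reads over 3 libraries.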
